A study of Mus musculus with 9 samples.

Results

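The 10 genes described here encode heat shock proteins of the cytosol and the co-chaperones that work with them. They are Hsp90aa1 and Hsp90ab1 (HSP90), Hspa8, Hspa1a and Hspa1b (HSP70), Hsph1 and Hspa4l (HSP110), Dnajb1 and Dnaja1 (J-domain proteins) and Bag3. They were chosen by gene symbol from the 17314 genes of the deposited count table. All 10 were found and all 10 passed the filter on low counts, which kept 13044 genes. RNA was sequenced from gastrocnemius, a calf muscle, of mice aged 6, 15 and 21 months. There were 3 mice per age, each a separate animal by the design text. The groups differ by age, while strain, sex, diet and treatment are not stated. Nothing in the labels names a batch.

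HSP90 and HSP70 proteins bind and release unfolded or partly folded proteins in cycles driven by ATP. J-domain proteins bring clients to HSP70 and start its ATP hydrolysis, HSP110 proteins and BAG-domain proteins exchange its nucleotide, and HSP90 takes over many clients at a later stage of folding. In cells under heat or protein damage, heat shock factor 1 binds repeats of the pentamer NGAAN upstream of these genes and raises their transcription. In skeletal muscle, Bag3 works with HSP70 and small heat shock proteins to clear damaged filamin at the Z-disc through autophagy.

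The libraries held 15354396 to 17317856 estimated counts each. Levels are given as CPM, that is, counts relative to the library total, after TMM scaling, which adjusts library sizes for composition. Acta1, Ckm and Myh4, which mark muscle fibres, had 20876 to 31276, 14163 to 22658 and 33611 to 60203 CPM over the 9 libraries. These markers show skeletal muscle with fast fibres and do not tell gastrocnemius from other such muscles. In 6-month mouse 2, Myh2, the myosin of oxidative fast fibres, had 0.751 CPM and Mb, myoglobin, 77.7 CPM, against 530.0 to 4395 CPM and 793 to 4370 CPM in the other 8 libraries. The libraries differed in slow fibre marker RNA: 12 slow fibre markers summed to 470, 111 and 252 CPM in 6-month mice 1, 2 and 3, to 1752, 737 and 430 CPM in the 15-month mice, and to 349, 470 and 1542 CPM in the 21-month mice. On the first principal component, with 35.2% of the variance, 6-month mouse 2 lay at one end (-48.0) and 15-month mouse 1 and 21-month mouse 3 at the other (27.6 and 26.7). No marker of the other cell types listed was at 0. The 11 macrophage markers summed to 185 to 288 CPM in 6-month mice, 95.0 to 213 CPM in 15-month mice and 122 to 201 CPM in 21-month mice. The 9 fibroblast markers summed to 2817 to 4147 CPM in 6-month mice, 2730 to 2800 CPM in 15-month mice and 2591 to 2762 CPM in 21-month mice. In bulk muscle, fewer cells of a type and less RNA per cell cannot be told apart.

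The upstream sequence is shown first, because heat shock factor 1 acts there in genes of this family and because Hspa1a and Hspa1b are near copies. The RefSeq promoter table (GRCm38.p6) matched 7 of the 10 genes, with 11 windows in all; Hsp90aa1, Hsp90ab1 and Hspa8 were not matched. Of each window, the 250 bases before the annotated start are used. The motif searched was a pair of pentamer units, GAANNTTC or TTCNNGAA, each of which is its own reverse complement, so that one search covers both strands. A run of 3 units, GAANNTTCNNGAA or TTCNNGAANNTTC, contains the pair by construction. The windows below read 5′ to 3′ on the strand of the gene, with the paired motif in capitals.

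Hspa1a, chr17:34972157-34972406, minus strand: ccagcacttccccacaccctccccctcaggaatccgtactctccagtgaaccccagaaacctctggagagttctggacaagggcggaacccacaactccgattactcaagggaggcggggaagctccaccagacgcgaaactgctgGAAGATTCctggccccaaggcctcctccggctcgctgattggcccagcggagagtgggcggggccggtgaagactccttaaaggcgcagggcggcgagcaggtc

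Hspa1b, chr17:34959239-34959488, minus strand: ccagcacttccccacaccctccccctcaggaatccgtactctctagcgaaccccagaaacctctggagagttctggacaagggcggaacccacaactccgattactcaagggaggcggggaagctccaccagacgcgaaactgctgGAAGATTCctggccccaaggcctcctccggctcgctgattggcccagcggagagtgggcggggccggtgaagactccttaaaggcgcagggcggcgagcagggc

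Hsph1, chr5:149636337-149636586, minus strand: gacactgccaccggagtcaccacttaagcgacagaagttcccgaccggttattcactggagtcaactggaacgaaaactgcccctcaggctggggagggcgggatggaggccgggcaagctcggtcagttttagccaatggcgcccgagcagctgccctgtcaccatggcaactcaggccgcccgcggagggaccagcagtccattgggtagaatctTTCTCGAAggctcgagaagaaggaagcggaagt

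Dnajb1, chr8:83607925-83608174, plus strand: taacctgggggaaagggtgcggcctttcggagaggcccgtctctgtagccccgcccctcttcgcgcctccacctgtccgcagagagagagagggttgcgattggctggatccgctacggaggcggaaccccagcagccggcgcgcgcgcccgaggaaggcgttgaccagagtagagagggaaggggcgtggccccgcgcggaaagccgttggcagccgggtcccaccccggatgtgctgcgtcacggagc

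Bag3, chr7:128523333-128523582, plus strand: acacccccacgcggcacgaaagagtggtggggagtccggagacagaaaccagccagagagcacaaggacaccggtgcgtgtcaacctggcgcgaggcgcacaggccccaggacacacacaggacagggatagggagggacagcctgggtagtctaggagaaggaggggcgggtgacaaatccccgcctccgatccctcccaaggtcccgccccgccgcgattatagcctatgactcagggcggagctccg

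Hspa1a and Hspa1b held GAAGATTC with its first base at position -104, counted from the annotated start. Hsph1 held TTCTCGAA at -33 in the window shown, which belongs to a transcript that starts inside the span of the gene, and its other window held the same copy. The most upstream of the Dnaja1 windows held GAAAATTC at -124. The windows of Dnajb1, Bag3 and Hspa4l held no copy of the paired motif, and no window of a member held the run of 3 units. The Hspa4l window, not shown, lies inside the span of the gene, so the bases upstream of that gene were not searched. The Dnajb1 window that is not shown also lies inside its gene. Of all 32851 windows in the table, 12.8% held the paired motif and 0.466% the run of 3 units. A match describes letters in a window and is not a binding site, and no match says only that these letters are not in that window. The windows of Hspa1a and Hspa1b were identical at 247 of 250 bases and differed at 3. Their coding sequences of 1926 and 1929 bases were identical at 1918 of 1929 aligned positions (99.4%), with an identical stretch of 638 bases. Among the members, Hspa1a and Hspa1b alone had estimated counts that were not whole numbers. Reads that match both copies cannot be placed by sequence, so the split of counts between the pair is uncertain.

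Per kilobase of transcript, Hspa8 and Hsp90ab1 were far above the other members. Hspa8, the constitutive HSP70, averaged 758 CPM per kilobase over the 3 ages and Hsp90ab1, the constitutive HSP90, 475. Bag3 followed at 75.5, Hsph1 at 42.7, Hsp90aa1 at 33.6 and Dnaja1 at 16.2. Hspa1a and Hspa1b, the inducible HSP70 genes, stood at 4.84 and 4.05, Dnajb1 at 3.32 and Hspa4l at 1.39. These lengths come from the longest principal transcript in GENCODE, and the mice of Hsph1 and Hsp90aa1 overlapped on this scale, as did those of Hspa1a, Hspa1b and Dnajb1. The range of Hspa1b also reached that of Hspa4l below and, through 21-month mouse 3, that of Dnaja1 above.

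**Figure D1:**
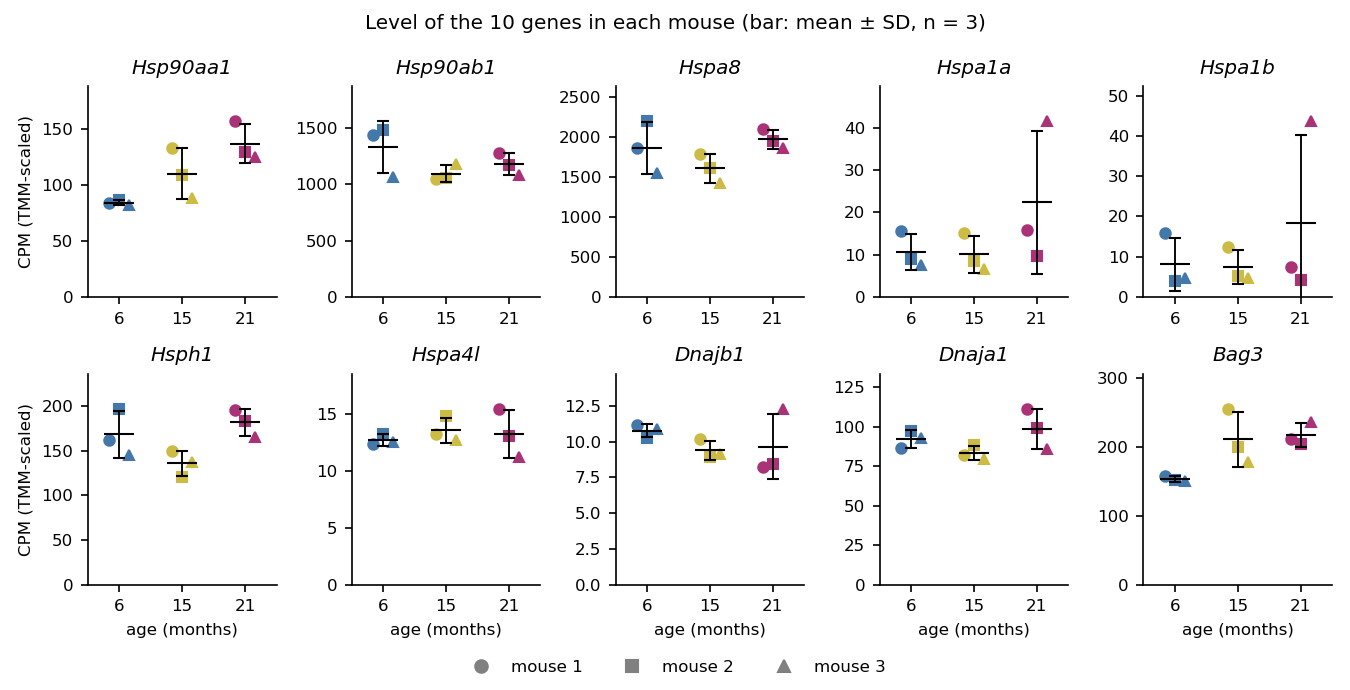
Level of each of the 10 genes (CPM after TMM scaling, y axis from 0) in each mouse at 6, 15 and 21 months (x axis), with the mean and SD of 3 mice as black bars; the lower SD bar of Hspa1b at 21 months is cut at 0. Hsp90aa1 and Bag3 have all 3 21-month mice above all 3 6-month mice, and Hspa1a and Hspa1b have 1 high mouse at 21 months.

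Hsp90aa1 encodes the inducible HSP90 alpha (Entrez ID 15519, chromosome 12, 110691036 to 110696395, minus strand). It had 84.0, 86.2 and 81.6 CPM in the 6-month mice, 133, 109 and 87.9 CPM in the 15-month mice, and 157, 129 and 125 CPM in the 21-month mice. Every mouse of either older age was above every 6-month mouse, and the 15- and 21-month mice overlapped. Hsp90aa1 averaged 137 ± 17.5 CPM in 21-month mice and 83.9 ± 2.29 CPM in 6-month mice (SD, 3 mice per age), a log2 fold change of 0.70 (SE 0.15). The quasi-likelihood test of edgeR gave an unadjusted p of 0.000751, rank 79 of 13044 genes, and an adjusted p of 0.124. DESeq2 gave an adjusted p of 0.00245 for the same difference, so the call depends on the tool, and over all 17 alternatives the adjusted p ran from 0.00245 to 0.435. Leaving out each library in turn gave log2 fold changes of 0.60 to 0.77. The log2 fold change at 15 against 6 months was 0.39 (SE 0.15, edgeR adjusted p = 0.406), and 0.23 to 0.53 when each library was left out, the lowest without 15-month mouse 1.

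Hsp90ab1 encodes HSP90 beta (Entrez ID 15516, chromosome 17, 45567778 to 45573261, minus strand), the constitutive form. It had 1438, 1480 and 1062 CPM in the 6-month mice, 1045, 1050 and 1177 CPM in the 15-month mice, and 1275, 1169 and 1083 CPM in the 21-month mice. The ages overlapped, and the widest spread was at 6 months. Its log2 fold change was -0.17 (SE 0.15, edgeR adjusted p = 0.721) at 21 against 6 months and -0.28 (SE 0.15, edgeR adjusted p = 0.553) at 15 against 6 months.

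The balance of the 2 cytosolic HSP90 genes can be read within a library, where scaling cancels. Hsp90aa1 amounted to 5.84, 5.82 and 7.68% of Hsp90ab1 in the 6-month mice, to 12.7, 10.4 and 7.47% in the 15-month mice, and to 12.3, 11.04 and 11.5% in the 21-month mice. All 21-month values lay above all 6-month values, while 15-month mouse 3 lay inside the 6-month range. The means were 11.6 ± 0.635% at 21 months and 6.45 ± 1.07% at 6 months (SD, 3 mice per age). An exact two-sided permutation test gave p = 0.1 at 21 against 6 months, the smallest p that 3 against 3 mice allow, p = 0.2 at 15 against 6 months and p = 0.5 at 21 against 15 months. The ratio was chosen after the levels were seen.

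**Figure D2:**
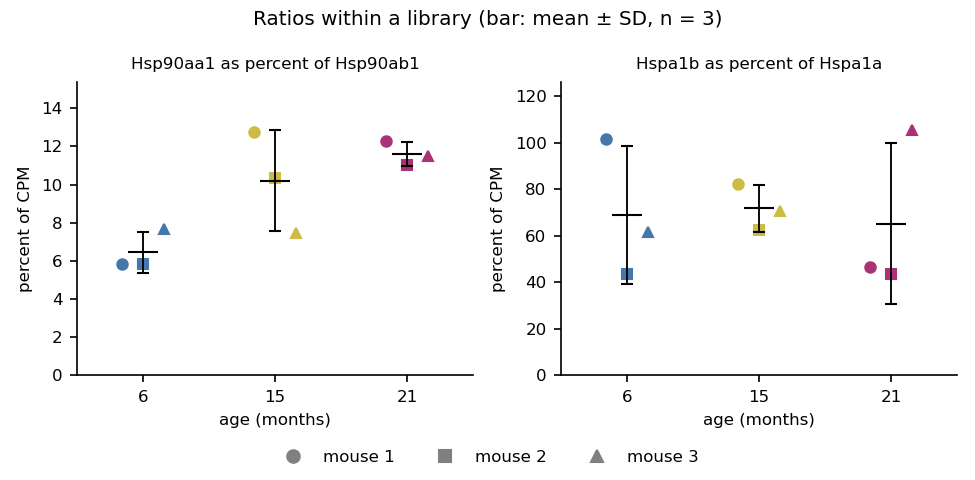
Left, Hsp90aa1 as percent of Hsp90ab1; right, Hspa1b as percent of Hspa1a (y axes, percent of CPM, from 0), in each mouse at 6, 15 and 21 months, with mean and SD of 3 mice. On the left the 21-month mice sit at 11.04 to 12.3% and the 6-month mice at 5.82 to 7.68%; on the right the ages overlap.

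Hspa8 encodes HSC70, the HSP70 of unstressed cells (Entrez ID 15481, chromosome 9, 40801276 to 40805202, plus strand). It had 1857, 2197 and 1545 CPM in the 6-month mice, 1787, 1614 and 1422 CPM in the 15-month mice, and 2096, 1950 and 1863 CPM in the 21-month mice. All 21-month mice were above all 15-month mice, and the 6-month mice overlapped both. The log2 fold change was 0.29 (SE 0.16, edgeR adjusted p = 0.9999) at 21 against 15 months and 0.08 (SE 0.16, edgeR adjusted p = 0.900) at 21 against 6 months. Its exons overlap 3 small nucleolar RNA genes on the same strand.

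Hsph1 encodes HSP105, an HSP110 that exchanges the nucleotide of HSP70 (Entrez ID 15505, chromosome 5, 149616843 to 149636498, minus strand). It had 163, 197 and 146 CPM in the 6-month mice, 149.8, 121 and 137 CPM in the 15-month mice, and 196, 184 and 166 CPM in the 21-month mice. As with Hspa8, the 15-month mice were low: all lay below every 21-month mouse, and 2 of 3 lay below the 6-month range. Hsph1 averaged 182 ± 15.2 CPM in 21-month mice and 136 ± 14.3 CPM in 15-month mice (SD, 3 mice per age), a log2 fold change of 0.42 (SE 0.13). Its unadjusted p of 0.00932 ranked 31 of 13044 genes in that comparison, and the edgeR adjusted p was 0.9999. At 15 against 6 months the log2 fold change was -0.31 (SE 0.13, edgeR adjusted p = 0.460).

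Hspa4l, an HSP110 of the cytosol (Entrez ID 18415, chromosome 3, 40744500 to 40796103, plus strand), was the flattest member. It had 12.3, 13.3 and 12.5 CPM in the 6-month mice, 13.2, 14.8 and 12.7 CPM in the 15-month mice, and 15.4, 13.1 and 11.2 CPM in the 21-month mice. The ages overlapped, and the log2 fold changes lay between -0.03 and 0.10 in the 3 comparisons, each with an SE of 0.13.

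Hspa1a and Hspa1b encode the stress-inducible HSP70 (Entrez IDs 193740 and 15511, chromosome 17, 34969359 to 34972156 and 34956429 to 34959238, minus strand). Hspa1a had 15.5, 8.89 and 7.54 CPM in the 6-month mice, 15.1, 8.51 and 6.70 CPM in the 15-month mice, and 15.9, 9.72 and 41.5 CPM in the 21-month mice. Hspa1b had 15.8, 3.88 and 4.66 CPM in the 6-month mice, 12.4, 5.30 and 4.74 CPM in the 15-month mice, and 7.45, 4.24 and 43.7 CPM in the 21-month mice. Both were highest in 21-month mouse 3, with 672 and 707 counts, and the other 21-month mice lay at 9.72 and 15.9 CPM for Hspa1a and at 4.24 and 7.45 CPM for Hspa1b. The 6 younger mice covered 6.70 to 15.5 CPM for Hspa1a and 3.88 to 15.8 CPM for Hspa1b. Exons of Hspa1a share 564 bases with Gm20481 on the opposite strand, a gene without counts of its own here. Whether counting used the strand is not given, so Hspa1a is uncertain to that extent too.

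The higher mean of the pair at 21 months rested on that mouse. Hspa1a had a log2 fold change of 1.07 (SE 0.50, edgeR adjusted p = 0.479) at 21 against 6 months, and 0.27 (SE 0.39) without 21-month mouse 3. Hspa1b had 1.19 (SE 0.82, edgeR adjusted p = 0.640), and -0.47 (SE 0.63) without it, which turned its direction. With the pair summed before the fit, which removes the uncertain split, the log2 fold change was 1.12 (SE 0.63, edgeR adjusted p = 0.563), and -0.01 (SE 0.48) without that mouse. The summed level was 85.2 CPM in 21-month mouse 3 and 11.4 to 31.3 CPM in the other 8 mice. That library also had 1542 CPM of slow fibre markers, against 349 and 470 CPM in the other 21-month mice. The other library rich in slow fibre markers, 15-month mouse 1 at 1752 CPM, had 27.5 CPM of the summed pair. That was the highest level at 15 months, where mice 2 and 3 had 13.8 and 11.4 CPM. Among the 6-month mice, mouse 1 had the most of both, with 470 CPM of slow fibre markers and 31.3 CPM of the pair. Within each age, the library with the most slow fibre marker RNA thus had the most of the pair. The remaining mice of 6 and of 21 months ran the other way. The part of fibre content in these values was not tested.

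Within an age, mice differed more in Hspa1a and Hspa1b than in most genes. The coefficient of variation among the 3 mice of an age, averaged over the ages, was 53.0% for Hspa1a and 85.9% for Hspa1b, larger than in 98.0% and 99.7% of the genes tested. The other 8 members lay between 8.07% (Dnaja1) and 12.0% (Hsp90aa1), against a median of 12.0% over 13043 genes. The ratio of Hspa1b to Hspa1a varied more within ages than between their means. It covered 43.7 to 101.6% at 6 months, 62.3 to 82.3% at 15 months and 43.6 to 105% at 21 months. The means were 69.0% at 6 months, 71.8% at 15 months and 65.2% at 21 months.

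Dnajb1, the J-domain partner of inducible HSP70 (Entrez ID 81489, chromosome 8, 83608175 to 83612653, plus strand), had 11.2, 10.3 and 10.9 CPM in the 6-month mice. It had 10.2, 8.94 and 9.10 CPM in the 15-month mice, and 8.23, 8.41 and 12.3 CPM in the 21-month mice. All 15-month mice lay below all 6-month mice by a narrow margin, and the 21-month mice held both the lowest and the highest value. The highest was again 21-month mouse 3. The log2 fold change was -0.16 (SE 0.16, edgeR adjusted p = 0.764) at 21 against 6 months and -0.20 (SE 0.16, edgeR adjusted p = 0.713) at 15 against 6 months. At 21 against 6 months it was -0.37 (SE 0.13, edgeR unadjusted p = 0.0188, adjusted p = 0.398) without 21-month mouse 3, and leaving out each library in turn gave -0.37 to -0.058.

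Dnaja1, a farnesylated J-domain protein that works with HSC70 (Entrez ID 15502, chromosome 4, 40722468 to 40734965, plus strand), had 86.2, 97.0 and 93.0 CPM in the 6-month mice. It had 81.9, 88.3 and 79.3 CPM in the 15-month mice, and 111, 98.9 and 86.0 CPM in the 21-month mice. The 15-month mice were again the lowest on average, with overlap on both sides. The log2 fold change was 0.25 (SE 0.11, edgeR adjusted p = 0.9999) at 21 against 15 months and 0.10 (SE 0.11, edgeR adjusted p = 0.788) at 21 against 6 months. Its exons share 608 bases with Smu1 on the opposite strand, and whether counting used the strand is not given, so its values are uncertain to that extent.

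Bag3 encodes the BAG-domain co-chaperone of HSP70 in muscle (Entrez ID 29810, chromosome 7, 128523583 to 128546981, plus strand). It had 157, 151 and 149.6 CPM in the 6-month mice, 255, 199.7 and 178 CPM in the 15-month mice, and 211, 203 and 236 CPM in the 21-month mice. Every mouse of either older age lay above every 6-month mouse, and the older ages overlapped. Bag3 averaged 217 ± 16.997 CPM in 21-month mice and 153 ± 4.01 CPM in 6-month mice (SD, 3 mice per age), a log2 fold change of 0.51 (SE 0.13). The edgeR unadjusted p was 0.00327 and the adjusted p 0.204, while DESeq2 gave an adjusted p of 0.0297, the lowest of a range of 0.0297 to 0.474 over the alternatives. At 15 against 6 months the log2 fold change was 0.47 (SE 0.13, edgeR adjusted p = 0.316), and over the alternatives the adjusted p ran from 0.0868 to 0.705. At 21 against 15 months it was 0.04 (SE 0.13).

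Slow fibre marker RNA was compared with Bag3 within each age. The highest Bag3 level at 15 months was in mouse 1 and at 21 months in mouse 3, the libraries with the most slow fibre marker RNA of their ages. The other 21-month mice ran the other way, since mouse 1 had 349 CPM of slow fibre markers and 211 CPM of Bag3, and mouse 2 had 470 CPM and 203 CPM. Among the 6-month mice, mouse 1 had the most of both, with 470 CPM of slow fibre markers and 157 CPM of Bag3. Mouse 2 had 111 CPM and 151 CPM, and mouse 3 had 252 CPM and 149.6 CPM. The 15-month mice had the same order in both, with 1752, 737 and 430 CPM of slow fibre markers and 255, 199.7 and 178 CPM of Bag3. With 6-month mouse 2, 15-month mouse 1 and 21-month mouse 3 left out together, the log2 fold change of Bag3 was 0.43 (SE 0.11, edgeR adjusted p = 0.206) at 21 against 6 months and 0.30 (SE 0.11, edgeR adjusted p = 0.357) at 15 against 6 months. For Hsp90aa1 at 21 against 6 months the value without the 3 libraries was 0.79 (SE 0.14, edgeR adjusted p = 0.151). For Hsp90aa1 at 15 against 6 months it was 0.25 (SE 0.14, edgeR adjusted p = 0.545), against 0.39 (SE 0.15, edgeR adjusted p = 0.406) with all libraries. The part of fibre content in the age difference was not tested.

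**Figure D3:**
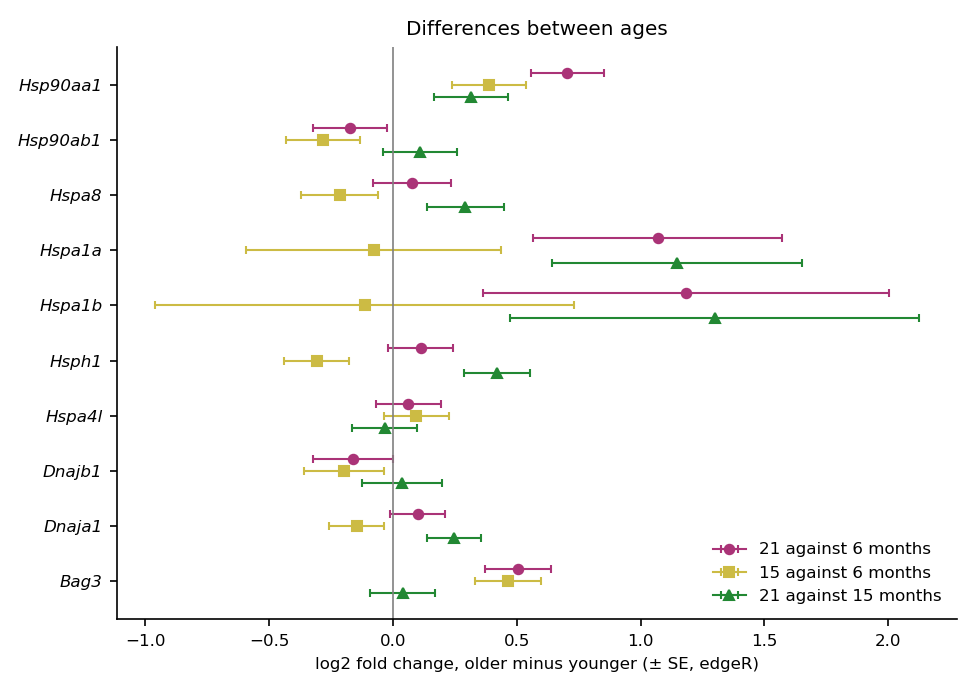
Log2 fold change (x axis, older minus younger, edgeR) of each of the 10 genes at 21 against 6, 15 against 6 and 21 against 15 months; points are estimates and bars are ± 1 SE. Hsp90aa1 (0.70) and Bag3 (0.51) lie more than 3 SE above 0 at 21 against 6 months, and the bars of Hspa1a and Hspa1b are the widest.

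Counted together at 21 against 6 months, edgeR called 0 of the 10 members at an adjusted p under 0.05, where it called 0.0153% of all genes tested. At an unadjusted p under 0.05 it gave 2 members higher, Hsp90aa1 and Bag3, and 0 lower, against 5.14% and 5.5% of all genes. DESeq2 called those 2 members higher and 0 lower, against 0.736% and 0.798% of all genes. Groups did not overlap for the same pair of members, both higher, against 7.81% of all genes, and for 0 members lower, against 8.31%. In all, 8 members were higher and 2 lower, with a median log2 fold change of 0.11, and the median of all genes was -0.01. Leaving out each library in turn gave 7 or 8 members higher and a median of 0.043 (without 21-month mouse 1) to 0.22 (without 6-month mouse 2), with 0.17 without 21-month mouse 3.

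At 15 against 6 months edgeR called 0 of 10 members and 0.00767% of all genes. DESeq2 called 0 members, against 0.307% of all genes higher and 0.568% lower. Unadjusted p under 0.05 was reached by Hsp90aa1 and Bag3, higher (4.91% of all genes), and by Hsph1, lower (5.38%). Groups did not overlap for Hsp90aa1 and Bag3, higher (6.64% of all genes), and for Dnajb1, lower (7.14%). Here 3 members were higher and 7 lower, with a median log2 fold change of -0.13 against -0.01 for all genes. The split was 5 higher and 5 lower without 15-month mouse 3, with a median of 0.01, and likewise 5 and 5 without 15-month mouse 2 or without 6-month mouse 1.

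At 21 against 15 months edgeR called 0 of 10 members and 0% of all genes. DESeq2 called 0 members, against 0.0153% of all genes higher and 0.00767% lower. Hsph1, Dnaja1 and Hspa1a were higher at an unadjusted p under 0.05, where 1.08% of all genes were, and 1.82% passed in either direction. The log2 fold change of Hspa1a there was 1.15 (SE 0.50), and 0.35 (SE 0.39) without 21-month mouse 3. Groups did not overlap for Hsph1 and Hspa8, both higher, against 2.84% of all genes, and for 0 members lower, against 3.3%. Of the members, 9 were higher and Hspa4l was lower, with a median log2 fold change of 0.27 against 0.00 for all genes. Leaving out each library in turn gave 7 members higher (without 21-month mouse 3, median 0.25) to 10 (without 15-month mouse 2, median 0.29). The median ran from 0.18 without 21-month mouse 1 to 0.31 without 15-month mouse 1. The 3 comparisons share libraries and are not independent of each other. An F-test over the 3 ages gave edgeR adjusted p-values from 0.255 (Hsp90aa1) to 0.962 (Hspa4l) for the members.

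**Figure D4:**
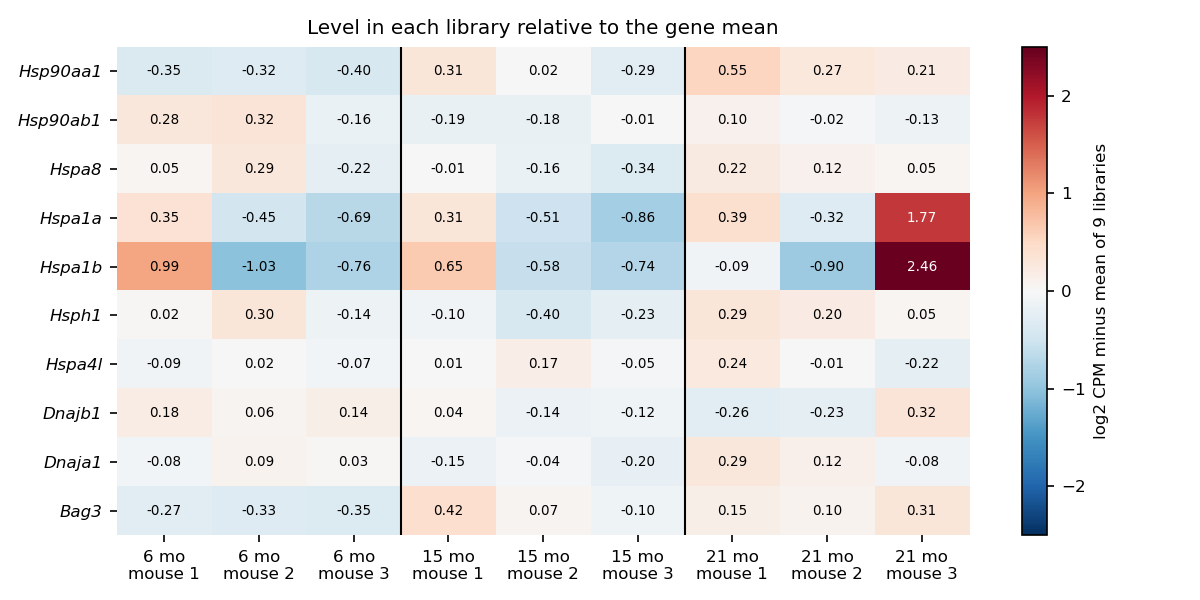
Level of each of the 10 genes (rows) in each of the 9 libraries (columns, by age) as log2 CPM minus the mean of the gene over 9 libraries; red is above and blue below the mean, and each cell gives its value. Hsp90aa1 and Bag3 are negative in all 6-month mice, and Hspa1a and Hspa1b reach 1.77 and 2.46 in 21-month mouse 3.

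Pairs of members were compared over the 9 mice. Of the 45 pairs of members, 29 had a positive Pearson correlation of log2 CPM, and 2 pairs had an adjusted p under 0.05 by exact permutation. Hspa8 and Hsph1 went together with r = 0.88 (exact p = 0.00210, adjusted p = 0.0473) and Spearman's rho = 0.95 (exact p = 0.000353, adjusted p = 0.0159). Without the 2 mice farthest from the median of Hspa8, r was 0.97, and on deviations from the age means it was 0.80. Hspa1a and Hspa1b had r = 0.94 (exact p = 0.00170, adjusted p = 0.0473) and rho = 0.68 (exact p = 0.0503, adjusted p = 0.429), with r = 0.89 without the 2 farthest mice and 0.97 within ages. Reads may be shared between the copies, so this pair is not 2 independent measurements.

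Hsp90aa1 and Bag3 had r = 0.86 (exact p = 0.00572, adjusted p = 0.0835) and rho = 0.90 (exact p = 0.00203, adjusted p = 0.0456), with r = 0.92 without the 2 farthest mice and 0.68 within ages. Hspa4l and Dnajb1 ran opposite to each other, with r = -0.80 (exact p = 0.00742, adjusted p = 0.0835) and rho = -0.80 (exact p = 0.0138, adjusted p = 0.207), r = -0.53 without the 2 farthest mice and -0.81 within ages. Each mouse gave 1 library, and the values of a library share its depth and scaling.

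The proportion of Hsph1 to Hspa8 was also taken within libraries. Hsph1 amounted to 8.76, 8.95 and 9.44% of Hspa8 in the 6-month mice, 8.38, 7.51 and 9.64% in the 15-month mice, and 9.37, 9.43 and 8.92% in the 21-month mice. The proportion spread most among the 15-month mice, with a mean of 8.51 ± 1.07% (SD, 3 mice). The mean was 9.24 ± 0.280% at 21 months and 9.05 ± 0.353% at 6 months (SD, 3 mice per age), a difference of 0.187 points with an exact two-sided permutation p of 0.7. Dnaja1 amounted to 4.997 ± 0.351% of Hspa8 at 21 months and 5.03 ± 0.868% at 6 months (SD, 3 mice per age; exact two-sided permutation p = 0.9). A p of this size does not show that the proportions are equal. Both ratios were chosen after the levels were seen.

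The mean of the 10 standardised levels was highest in 21-month mouse 1 (0.77) and 21-month mouse 3 (0.53) and lowest in 15-month mouse 3 (-0.77) and 6-month mouse 3 (-0.59). The 8 genes outside the set whose log2 CPM over the 9 libraries followed that mean most closely, of 13034 candidates, were Ifitm3 (r = 0.92), Lgmn (0.90), Skap2 (0.89), Mcph1 (0.89), Ccl7 (0.88), Tmem43 (0.88), Dnase2a (0.87) and Ghitm (0.87). They are the top of a ranking over all genes and carry no test. Ifitm3, an interferon-induced membrane protein, had mean levels of 39.7 CPM in 6-month mice, 37.5 CPM in 15-month mice and 43.0 CPM in 21-month mice. Lgmn, a lysosomal protease, had 29.8 CPM in 6-month mice, 29.2 CPM in 15-month mice and 36.1 CPM in 21-month mice. Both had their lowest mean at 15 months and their highest at 21 months. They were picked for following the members, so this is not a separate result. Skap2 and Ghitm had their lowest mean at 6 months (5.94 and 484 CPM), and the rest of the 8 genes had it at 15 months. Ccl7 was near the floor, with 1.01 CPM in 21-month mice and 0.208 CPM in 15-month mice on average.

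Other chaperones and partners were grouped by role, to set the members beside the rest of the network. At 21 against 6 months edgeR called 0 genes in each of the 11 groups, and DESeq2 called 10 genes, all higher and all in the endoplasmic reticulum group, where it called 0.736% of all genes higher. Of the 7 other HSP70 and HSP110 genes, 5 were higher and 2 lower, with a median log2 fold change of 0.21. Of these, 3 passed an unadjusted p of 0.05, all higher, against 5.14% of all genes: Hspa2, an HSP70 best known from the testis, at 0.72 (SE 0.19, edgeR adjusted p = 0.203), Hspa1l at 0.47 (SE 0.18, edgeR adjusted p = 0.391) and Hspa4, an HSP110, at 0.21 (SE 0.09, edgeR adjusted p = 0.428). Hspa2 had 8.02 ± 1.60 CPM in 21-month mice and 4.87 ± 0.769 CPM in 6-month mice (SD, 3 mice per age), without overlap.

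The HSP90 co-chaperones were spread evenly, with 11 higher and 13 lower of 24 and a median of -0.03. Groups did not overlap for 2 of them higher and 2 lower, against 7.81% and 8.31% of all genes. Stip1 (HOP), which links HSP70 to HSP90, had 164 ± 4.98 CPM in 21-month mice and 138 ± 3.42 CPM in 6-month mice (SD, 3 mice per age), a log2 fold change of 0.25 (SE 0.09, edgeR adjusted p = 0.332) without overlap. Chordc1 stood at 0.29 (SE 0.13, edgeR adjusted p = 0.445). Fkbp5, an immunophilin of the glucocorticoid receptor complex and a glucocorticoid-responsive gene, was lower at -0.68 (SE 0.26, edgeR adjusted p = 0.383). At 15 against 6 months Fkbp5 stood at -1.004 (SE 0.26, edgeR adjusted p = 0.272) and was called by DESeq2, with 93.1 ± 11.2 CPM in 15-month mice and 187 ± 54.9 CPM in 6-month mice (SD, 3 mice per age).

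The other J-domain proteins had 9 of 16 higher and a median of 0.08, with 0 at an unadjusted p under 0.05. Dnajb5 was nearest on the lower side at -0.26 (SE 0.12, edgeR adjusted p = 0.475), and Dnajc5, a synaptic vesicle chaperone, on the higher side at 0.16 (SE 0.08, edgeR adjusted p = 0.513). The exchange factors and cofactors of HSP70 had 4 of 9 higher and a median of -0.03, the subunits of TRiC and prefoldin 7 of 14 and -0.01, and the mitochondrial chaperones 6 of 8 and 0.03. In these 3 groups 0 genes had an unadjusted p under 0.05.

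Of the heat shock factors and their binding proteins, 5 of 7 passed the filter, 2 higher and 3 lower, with a median of -0.02. Hsf1, which drives the heat shock response, had 39.4 ± 4.36 CPM in 21-month mice and 43.2 ± 2.01 CPM in 6-month mice (SD, 3 mice per age), a log2 fold change of -0.13 (SE 0.11, edgeR adjusted p = 0.707). Hsf2 stood at 0.26 (SE 0.15, edgeR adjusted p = 0.575). The 6 other genes known as targets of heat shock factor 1 had 2 higher and 4 lower, with a median of -0.14.

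Partners of Bag3 in selective autophagy had 6 of 10 higher and a median of 0.02. Hspb8, the small heat shock protein that binds Bag3, had 854 ± 98.4 CPM in 21-month mice and 700.2 ± 46.1 CPM in 6-month mice (SD, 3 mice per age), a log2 fold change of 0.29 (SE 0.13, edgeR adjusted p = 0.452) without overlap. Flnc, the filamin of muscle and a client of the complex, stood at 1.05 (SE 0.43, edgeR adjusted p = 0.426), with a wide spread of 1258 ± 578 CPM in 21-month mice and 609 ± 177 CPM in 6-month mice (SD, 3 mice per age). Small heat shock proteins had 5 of 7 higher and a median of 0.37. Hspb7 stood at 1.63 (SE 0.79, edgeR adjusted p = 0.490) and Hspb1 at 0.88 (SE 0.42, edgeR adjusted p = 0.489).

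The chaperones of the endoplasmic reticulum had the highest median of the 11 groups. All 14 were higher at 21 against 6 months, with a median of 0.73, 13 of them at an unadjusted p under 0.05, against 5.14% of all genes, and 10 called by DESeq2. Hspa5 (BiP), the HSP70 of that compartment, stood at 1.39 (SE 0.21, edgeR adjusted p = 0.0585), Pdia3 at 0.73 (SE 0.12, edgeR adjusted p = 0.0698) and Canx at 0.64 (SE 0.11, edgeR adjusted p = 0.0698). The cytosolic members had a median of 0.11 in the same comparison. That the 2 sets differ was not tested.

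**Figure D5:**
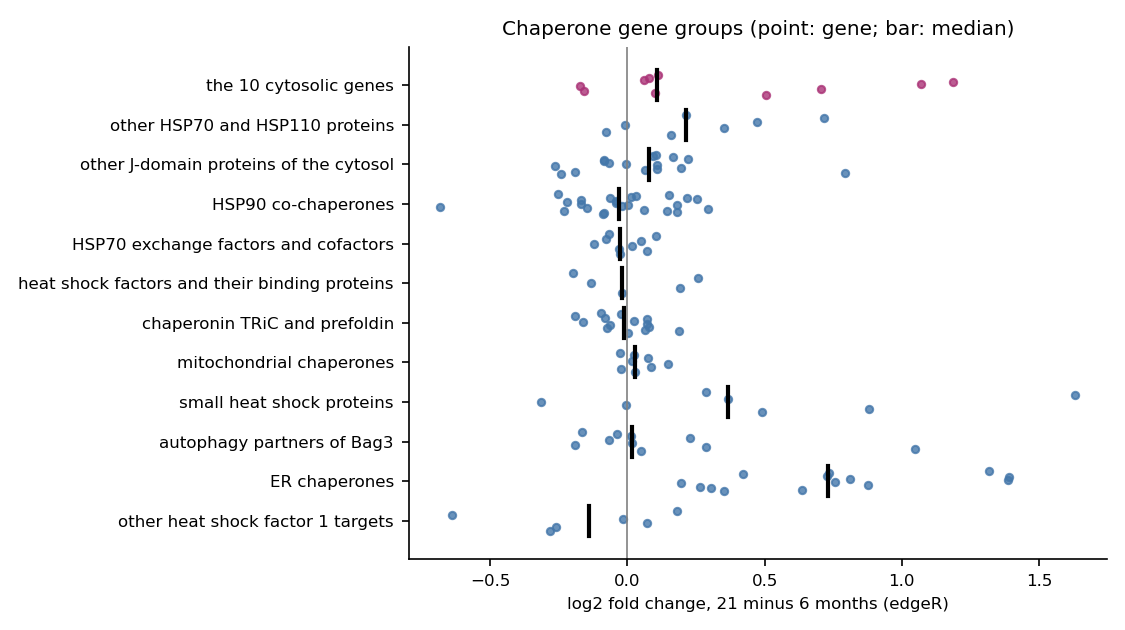
Log2 fold change at 21 against 6 months (x axis, older minus younger, edgeR) for the 10 cytosolic genes (top row) and 11 groups of other chaperones and partners; each point is 1 gene and each black bar the median of a row. The row of endoplasmic reticulum chaperones has a median of 0.73, and the 10 cytosolic genes one of 0.11.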

How the data were processed

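RNA of gastrocnemius from 9 mice was extracted with TRIzol, selected with oligo(dT) beads and sequenced from DNA nanoballs, per the labels' protocols. The authors deposited estimated counts per gene for each library, of which 90.0 to 90.7% in a library were whole within 0.005. The submitters' processing notes name the build mm10. No aligner, counter or strand setting is named in the labels or file headers. Selection by oligo(dT) depends on RNA integrity, and shared reads make near-identical copies uncertain.

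These estimated counts, as deposited, were rounded before the fit. The filter was filterByExpr with a minimum count of 10, and TMM factors scaled the libraries, within a range of 0.923 to 1.05. All 9 libraries entered 1 model with age as a factor, tested by quasi-likelihood in edgeR 4.0.16 under R 4.3.3. Ages were compared pairwise, p-values were adjusted over all 13044 genes by Benjamini-Hochberg, and the threshold was 0.05. Spread pooled over ages had 6 residual and 4.24 prior degrees of freedom. The fit was tested on simulated data with known changes. At 21 against 6 months it recovered 19.0% of 1.5-fold, 63.2% of 2-fold and 91.3% of 4-fold changes, and 4 of 122 calls were false. A gene that is not called may therefore still differ by such amounts. The simulation drew each gene independently, without differences shared by the genes of a library. It gave 122 calls where the data gave 2, so its recovery rates may be too high for these data. DESeq2 1.42.0, other scalings, filters, sample sets, a replicate block and leaving out each library were alternatives. Exact permutation tests of CPM and ratios cannot go below 0.1 with 3 against 3 mice. Correlations between members used log2 CPM without a prior count, with p-values from all orderings of the 9 libraries adjusted over 45 pairs. The principal component, the mean of the standardised levels and the ranking of genes that follow it used log2 CPM with a prior count of 2. Columns were matched to mice by life stage and replicate number, and columns of other samples numbered 0. Entrez IDs were looked up in a RefSeq table of GRCm38.p6, the assembly that mm10 names (17188 of 17314 found), and lengths and overlaps in a GENCODE annotation of the same assembly.

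All 10 members were named. From each list of other chaperones, the genes past the threshold and the 3 with the smallest p at 21 against 6 months were eligible, and the 8 genes most like the members' mean. One eligible gene is not reported here. The named ratios, the counts of members higher and lower under each alternative and the scaling check of CPM differences were added after seeing the data. The members and lists were chosen with earlier results of these data known. P-values measure the spread between single mice of an age.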

Additional observations from a re-analysis of the deposited data

How the results depend on the processing

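With 3 mice per age, differences within about the spread of 1 library could not be resolved, and 17 alternatives were run. Genes past the threshold at 21 against 6 months numbered 2, against 200 with DESeq2, 1 with total count scaling, 30 with no low count filter and 0 to 42 when each library was left out. At 15 against 6 months there was 1, against 114 with DESeq2, 0 with total count scaling, 0 with the filter of at least 5 CPM in 3 libraries, 0 with only the 2 ages compared and 0 to 10 when each library was left out. At 21 against 15 months there were 0, against 3 with DESeq2. Members past the threshold were 0 in each comparison and alternative except DESeq2 at 21 against 6 months, which called 2, Hsp90aa1 and Bag3. The cause of these shifts was not tested.

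Nothing in the labels joins mice of different ages by replicate number. Deviations from the age means correlated between -0.42 and 0.41 for same-numbered libraries of different ages, and between -0.37 and 0.40 for differently numbered ones. With 3 mice per age, these values cannot decide whether the mice were paired. With the replicate number as a block, 5 genes passed at 21 against 6 months, 0 at 15 against 6 months and 0 at 21 against 15 months, with 0 members in each.

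Hsp90aa1 and Bag3 stayed higher at 21 and at 15 against 6 months in all 17 alternatives. Directions turned in 11 results, all with log2 fold changes that missed the threshold. Every member missed it in the main fit, so missing it does not set these results apart. Leaving out each library gave, at 21 against 6 months, -0.034 to 0.21 for Hspa8, -0.47 to 2.11 for Hspa1b, -0.063 to 0.17 for Hspa4l and -0.0054 to 1.71 for the summed Hspa1a and Hspa1b. At 15 against 6 months it gave -0.48 to 0.30 for Hspa1a, -0.69 to 0.81 for Hspa1b and -0.57 to 0.49 for the summed pair. At 21 against 15 months it gave -0.36 to 1.87 for Hspa1b, -0.16 to 0.071 for Hspa4l, -0.18 to 0.14 for Dnajb1 and -0.069 to 0.20 for Bag3. Without the 3 outlying libraries together, Hspa1b was -0.80 and the summed pair -0.22 at 21 against 6 months, and Hspa4l was 0.052 and Dnajb1 -0.12 at 21 against 15 months. Total count scaling gave 0.010 for Hspa1a at 15 against 6 months and moved the median of all genes to 0.07 there and at 21 against 6 months.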
